A study of Homo sapiens with 6 samples.

Results

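Histone acetylases and deacetylases, the enzymes that write and erase acetylation of histones and other proteins, were examined in bulk RNA-seq libraries of H9 cells treated with the CDK9 inhibitor AZD4573 or with vehicle. Members were the 39 genes whose symbols are on a fixed name list, taken from 61541 genes in the count table. They comprised 17 genes of the writing side (acetylases and the scaffolds of their complexes) and 22 of the erasing side (deacetylases and co-repressor scaffolds), and each of the 39 passed the filter on low counts. H9 is an established cutaneous T-cell lymphoma (CTCL) cell line, labelled wild type in genotype. Of its 6 libraries, 3 came from cells given DMSO and 3 from cells given AZD4573 for 4 h by the labels, at 50 nM by the figure legends, while the discussion mentions an exposure of 6 h. Since the libraries come from a single cell line, the values describe that line. The labels do not say whether replicates were separate cultures, so that p-values measure the spread between these libraries, which may be technical.

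Acetylases transfer the acetyl group of acetyl-CoA to lysines of histone tails, which loosens their hold on DNA and provides docking sites for bromodomain proteins. Deacetylases remove the group, the classical HDACs with a zinc ion and the sirtuins at the expense of NAD+. Most of these enzymes work inside large complexes whose scaffolds determine where they bind. HDAC inhibitors such as vorinostat and romidepsin are used to treat CTCL. CDK9, the kinase of P-TEFb, releases RNA polymerase II from promoter-proximal pausing.

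Total counts ranged from 70367303 to 76571157 in the DMSO libraries and from 52101868 to 63795185 in the AZD4573 libraries. Levels of cell-type markers are in CPM scaled by library size alone. Those of members and related genes below are in normalized CPM (counts scaled by library size and TMM factor). Of 12 T-cell markers, 11 had a mean over 1 CPM, CD2 being the exception. The summed level of the 12 was 1828 to 1840 with DMSO and 2185 to 2196 with AZD4573. Markers of other cell types were mostly under 1 CPM: CD79A was the exception among 3 B-cell markers (summed level 57.6 to 62.8 and 87.1 to 94.7), EPCAM among 3 epithelial markers (155 to 172 and 127 to 133), COL1A1 among 3 fibroblast markers (5.11 to 7.72 and 3.39 to 4.26) and POU5F1 among 4 markers of pluripotent cells (1.11 to 1.57 and 1.84 to 2.4). The 3 myeloid markers were all under 1 CPM (summed level 0.0522 to 0.199 and 0.307 to 0.387). The part of any of these markers in the results was not tested. Mitochondrially encoded mRNAs (13 genes), which are not products of RNA polymerase II, took 3.13% ± 0.0929 of all DMSO counts and 4.85% ± 0.162 of all AZD4573 counts (SD, n = 3). TMM scaling sets the bulk of genes equal between libraries, whereas scaling to these 13 mRNAs lowered the median of all genes on the log2 fold change scale from 0.03 to -0.71. The direction of a member therefore depends on the scaling where its change was small. Scaling to the 13 mRNAs takes their level as constant between groups, which was not tested. A fall of other mRNAs cannot be told apart from a rise of these. In bulk libraries, less RNA per cell also cannot be told apart from fewer cells.

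Among the writers and erasers, AZD4573 lowered both general co-activators, EP300 and CREBBP, most MYST acetylases and the sirtuins SIRT1, SIRT6 and SIRT7, whereas KAT2A and HDAC4 rose. Of the 39 members, 18 (46.2%) fell and 14 (35.9%) rose by edgeR's quasi-likelihood test (Benjamini-Hochberg adjusted p under 0.05), where 37.4% of all 17678 genes tested fell and 37.3% rose. With a fold change of at least 1.5 as well, 11 members (28.2%) fell and 5 (12.8%) rose, against 23.7% and 22.7% of all genes. The 3 AZD4573 libraries lay beyond the 3 DMSO libraries for 32 members (82.1%), those that were called, where 77.8% of all genes were separated in this way. The shares of the members thus lay within 10 percentage points of those of all genes. All genes tested include genes that are not protein-coding. Of the 13423 protein-coding genes tested, 38.4% to 49.7% fell and 30.9% to 42.0% rose, depending on gene span. Their median log2 fold change was -0.07, so shares lower among all genes understate those of protein-coding genes.

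On the writing side, 10 of 17 genes (58.8%) fell and 5 (29.4%) rose, against 37.4% and 37.3% of all genes. The median log2 fold change of writers was -0.38 (range -1.82 to 0.93). On the erasing side, 8 of 22 genes (36.4%) were lower and 9 (40.9%) higher, shares near those of all genes. Their median was 0.03 (range -2.44 to 1.21), equal to the median of all genes and above that of protein-coding genes (-0.07). The medians of writers and erasers differed by -0.41 on the log2 scale, a value given as a description since genes are not replicates. With mitochondrial scaling the medians were -1.11 and -0.71, respectively, where the median of all genes was -0.71. With it 33 members fell and 2 rose, but the share of all genes called with this scaling was not computed. The same 18 members were lower, and KAT2A and HDAC4 higher, in the main fit and in each of 13 alternatives.

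**Figure D1:**
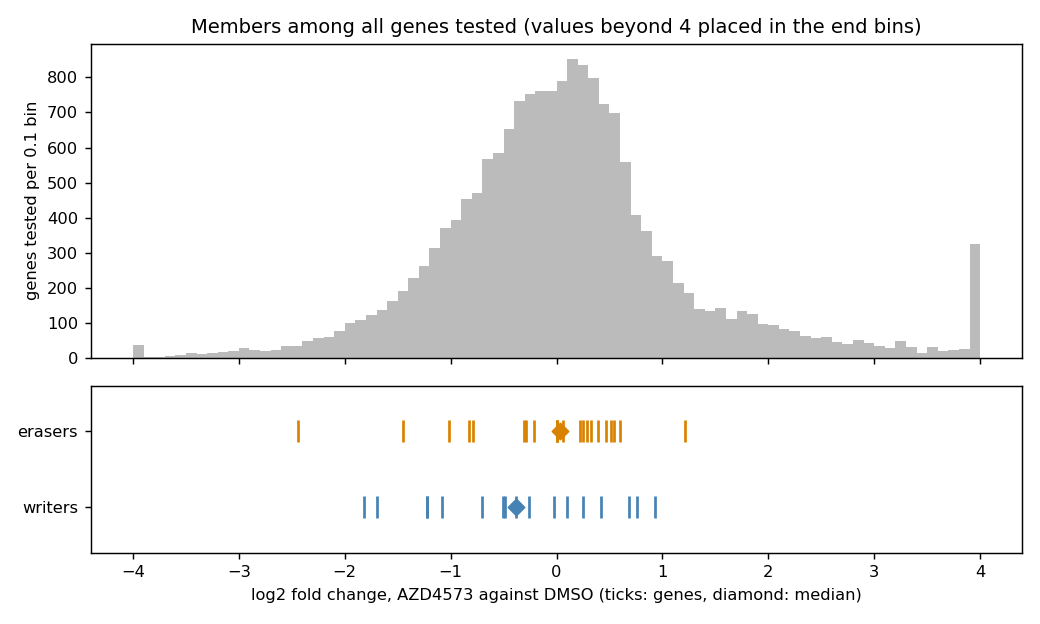
Histogram of the log2 fold change (AZD4573 against DMSO, x axis) of the 17678 genes tested, as genes per bin of 0.1, above the 17 writers and 22 erasers, drawn as ticks with a diamond at each median. Writers extend from -1.82 to 0.93 around a median of -0.38, and erasers from -2.44 to 1.21 around a median of 0.03.

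**Figure D2:**
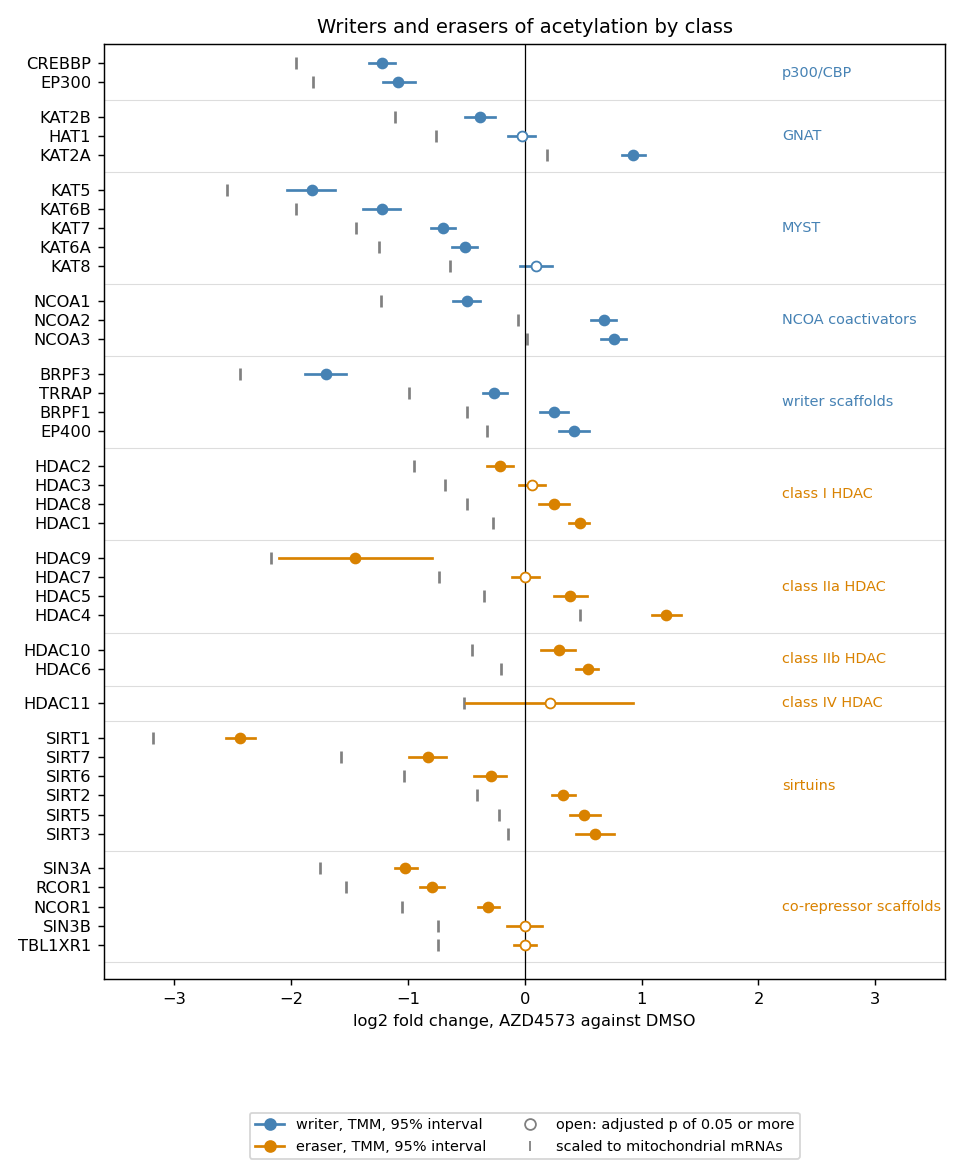
Log2 fold change of each member (AZD4573 against DMSO, x axis) by class, as a point (writers in blue, erasers in orange) with its 95% interval for TMM scaling. Open points had an adjusted p of 0.05 or more, and grey marks give the same gene with scaling to mitochondrial mRNAs. Grey marks lie above 0 for 3 genes, KAT2A (0.19), HDAC4 (0.47) and NCOA3 (0.02).

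The promoters of the members that moved furthest in each direction on each side are shown to place them in the genome: KAT5 and KAT2A among writers, and SIRT1 and HDAC4 among erasers. Each sequence is the 250 bases upstream of the RefSeq start (GRCh38.p14), 5′ to 3′ on the strand of the gene. The windows lie at chr11:65712002-65712251 (plus strand, KAT5), chr17:42121368-42121617 (minus strand, KAT2A), chr10:67884406-67884655 (plus strand, SIRT1) and chr2:239401650-239401899 (minus strand, HDAC4), the last with a RefSeq start 629 bp from that of the canonical transcript. Capitals mark the matches to the motifs searched.
KAT5: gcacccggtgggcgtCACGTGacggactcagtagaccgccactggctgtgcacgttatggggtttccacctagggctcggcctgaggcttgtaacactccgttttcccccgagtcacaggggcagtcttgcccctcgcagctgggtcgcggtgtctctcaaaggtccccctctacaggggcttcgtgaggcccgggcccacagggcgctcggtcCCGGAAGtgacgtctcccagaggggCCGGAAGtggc
KAT2A: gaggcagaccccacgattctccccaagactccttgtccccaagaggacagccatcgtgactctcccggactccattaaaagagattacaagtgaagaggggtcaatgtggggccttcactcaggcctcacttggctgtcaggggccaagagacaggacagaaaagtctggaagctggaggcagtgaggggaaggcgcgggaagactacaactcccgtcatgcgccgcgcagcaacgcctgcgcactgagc
SIRT1: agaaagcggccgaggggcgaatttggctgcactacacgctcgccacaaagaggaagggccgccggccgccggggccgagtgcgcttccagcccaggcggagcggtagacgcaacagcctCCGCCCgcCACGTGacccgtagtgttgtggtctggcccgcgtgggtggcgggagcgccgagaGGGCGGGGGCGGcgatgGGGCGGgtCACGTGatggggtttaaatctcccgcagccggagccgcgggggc
HDAC4: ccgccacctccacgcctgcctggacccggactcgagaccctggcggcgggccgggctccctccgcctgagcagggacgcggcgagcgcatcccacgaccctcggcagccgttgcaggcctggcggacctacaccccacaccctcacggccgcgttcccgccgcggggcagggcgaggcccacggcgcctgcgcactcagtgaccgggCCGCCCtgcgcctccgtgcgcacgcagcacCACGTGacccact
The SIRT1 window holds 2 E-boxes, at -123 to -118 and -44 to -39 counted from the start, and 4 GC boxes. KAT5 has an E-box at -235 to -230 and ETS motifs at -36 to -30 and -11 to -5. The HDAC4 window has an E-box at -13 to -8 and a GC box at -43 to -38, and none of the 8 motifs matched in KAT2A. In these windows no match overlapped another.

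Windows of 32 members could be matched to within 1000 bp of the canonical start, and the letters of each motif were searched on both strands. The E-box CACGTG, bound by the Myc family, was in KAT5, HDAC4 and SIRT1 (3 of 32 members, 9.38%, against 7.55% of 18034 promoters). The GC box GGGCGG was in 20 members (62.5% against 55.6%) and CCAAT in 10 (31.2% against 34.4%). The ETS motif CCGGAAG was in 8 members (25.0% against 11.5%), namely HAT1, KAT5, KAT7, EP400, HDAC10, SIRT3, SIRT6 and NCOR1. The GATA motif AGATAA was in HDAC7 and SIRT6 (2 members, 6.25%, against 7.09%), and the NRF1 core CGCATGCG in SIRT5 and SIRT6 (2 members, 6.25%, against 2.5%). TATAAA and the CRE TGACGTCA had 0 matches among members, with 9.3% and 2.37% of all promoters matched. The member windows were GC-rich (median 71.2%, range 45.2 to 87.2) compared with all promoters (median 62.4%). A match of letters describes the window and is no evidence of binding.

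EP300 and CREBBP encode p300 and CBP, closely related acetylases that act as co-activators at enhancers and also acetylate transcription factors such as GATA-3. EP300 (chr22:41092592-41180077) was at 124, 133 and 141 normalized CPM in the DMSO libraries and at 64.0, 67.1 and 58.2 with AZD4573. CREBBP (chr16:3725054-3880713) was at 97.7, 104 and 104 CPM with DMSO and at 44.5, 44.8 and 42.1 with AZD4573. Each AZD4573 library was below each DMSO library for both genes. The fall was 2.11-fold for EP300 (log2 fold change -1.08 ± 0.0611 SE, adjusted p = 2.8e-09 by edgeR) and 2.33-fold for CREBBP (-1.22 ± 0.0491 SE, adjusted p = 1.6e-10 by edgeR), which placed them at percentiles 12.5 and 10.0 of all genes tested.

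The GNAT acetylases moved in different directions. KAT2A (GCN5) and KAT2B (PCAF) are alternative catalytic subunits of SAGA and ATAC, while HAT1 acetylates newly made histone H4 before its deposition. KAT2A (chr17:42113111-42121367) was at 139, 148 and 151 CPM with DMSO and at 264, 286 and 285 with AZD4573, without overlap between groups. It was the writer with the largest rise (1.91-fold, log2 fold change 0.93 ± 0.047 SE, edgeR adjusted p = 1e-09) and was still higher with mitochondrial scaling (0.19, adjusted p = 0.00394). KAT2B was lower, at 38.0, 38.9 and 38.1 CPM with DMSO against 32.0, 28.5 and 28.0 with AZD4573 (1.3-fold, edgeR adjusted p = 6.5e-05). HAT1 was at 51.5 to 58.2 CPM with DMSO and 53.0 to 55.4 with AZD4573, overlapping ranges with a 95% interval of the log2 fold change of -0.14 to 0.09.

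Of the 5 MYST acetylases, 4 fell and 1 was not called, where 37.4% of all genes fell. Their median log2 fold change was -0.70. These values describe the 5 genes, and a difference of the class from all genes was not tested. KAT5 (TIP60, chr11:65711996-65719604), the catalytic subunit of NuA4/TIP60, which acts in transcription and in DNA damage signalling, was at 67.2, 62.7 and 61.5 CPM with DMSO. With AZD4573 it was at 21.8, 15.8 and 16.7 CPM, far below each DMSO library. This fall of 3.53-fold (-1.82 ± 0.0952 SE, edgeR adjusted p = 1.3e-09) was the largest among writers and lay at percentile 3.94 of all genes. Of the exonic bases of KAT5, 1439 of 3732 (38.6%) are shared with RNASEH2C on the opposite strand, which fell less, from 44.4 ± 0.575 to 35.6 ± 2.15 CPM (SD, n = 3).

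KAT6A and KAT6B (MOZ and MORF) acetylate histone H3 in complexes with a BRPF scaffold, and KAT7 (HBO1) acts with BRPF or JADE scaffolds, also at replication origins. KAT6B was at 50.8, 49.9 and 50.0 CPM with DMSO and at 24.4, 20.8 and 19.6 with AZD4573 (2.33-fold lower, edgeR adjusted p = 3.6e-09). KAT6A fell less, from 152, 152 and 146 CPM to 98.3, 112 and 105 (1.43-fold, edgeR adjusted p = 5.7e-07). For KAT7, the DMSO libraries were at 76.2, 77.7 and 78.6 CPM and the AZD4573 libraries at 49.1, 47.8 and 46.0 (1.63-fold lower, edgeR adjusted p = 1.3e-08). The groups were separate for these genes, with KAT6B the most reduced. KAT8 (MOF), which acetylates histone H4, was at 33.4 to 38.0 CPM with DMSO and at 35.9 to 40.5 with AZD4573, overlapping ranges with a 95% interval of -0.04 to 0.23.

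The p160 co-activators NCOA1, NCOA2 and NCOA3 bind ligand-activated nuclear receptors and recruit p300 and CBP, and they did not move together. NCOA1 was at 39.4, 39.4 and 42.4 CPM with DMSO and at 28.6, 28.4 and 29.0 with AZD4573, a fall of 1.41-fold (edgeR adjusted p = 1.7e-06). NCOA2 was higher in each AZD4573 library, at 65.7, 66.2 and 62.7 CPM against 40.1, 39.9 and 41.7 (1.6-fold, edgeR adjusted p = 2.7e-08). NCOA3 was also higher, at 118, 129 and 126 CPM against 71.0, 72.6 and 77.0 (1.69-fold, edgeR adjusted p = 9.8e-09). With mitochondrial scaling the log2 fold change of NCOA2 turned to -0.06 and that of NCOA3 was 0.02 (adjusted p = 0.754 by edgeR). The rise of these genes thus depended on the scaling.

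BRPF1 and BRPF3 are scaffolds that bring MYST acetylases to histone H3. BRPF3 (chr6:36196744-36232790) was at 33.5, 38.3 and 36.0 CPM with DMSO and at 12.0, 11.4 and 9.74 with AZD4573. These groups were far apart, with a fall of 3.26-fold (-1.70 ± 0.081 SE, edgeR adjusted p = 6e-10), whereas BRPF1 was at 90.8, 93.6 and 98.1 CPM with DMSO and at 106, 122 and 108 with AZD4573 (1.19-fold higher, edgeR adjusted p = 0.00125, -0.49 with mitochondrial scaling). EP400, an ATPase of NuA4/TIP60 that exchanges histones, rose from 135, 155 and 162 CPM to 209, 204 and 192 (1.34-fold, edgeR adjusted p = 2.8e-05, -0.32 with mitochondrial scaling). TRRAP, a very large scaffold shared by SAGA and NuA4/TIP60, was at 261 to 284 CPM with DMSO and at 214 to 234 with AZD4573 (1.19-fold lower, edgeR adjusted p = 0.00025). The pseudogene EP400P1, a near copy with which EP400 may share reads, was listed at 17.4 ± 2.23 and 42.5 ± 1.27 CPM (SD, n = 3).

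**Figure D3:**
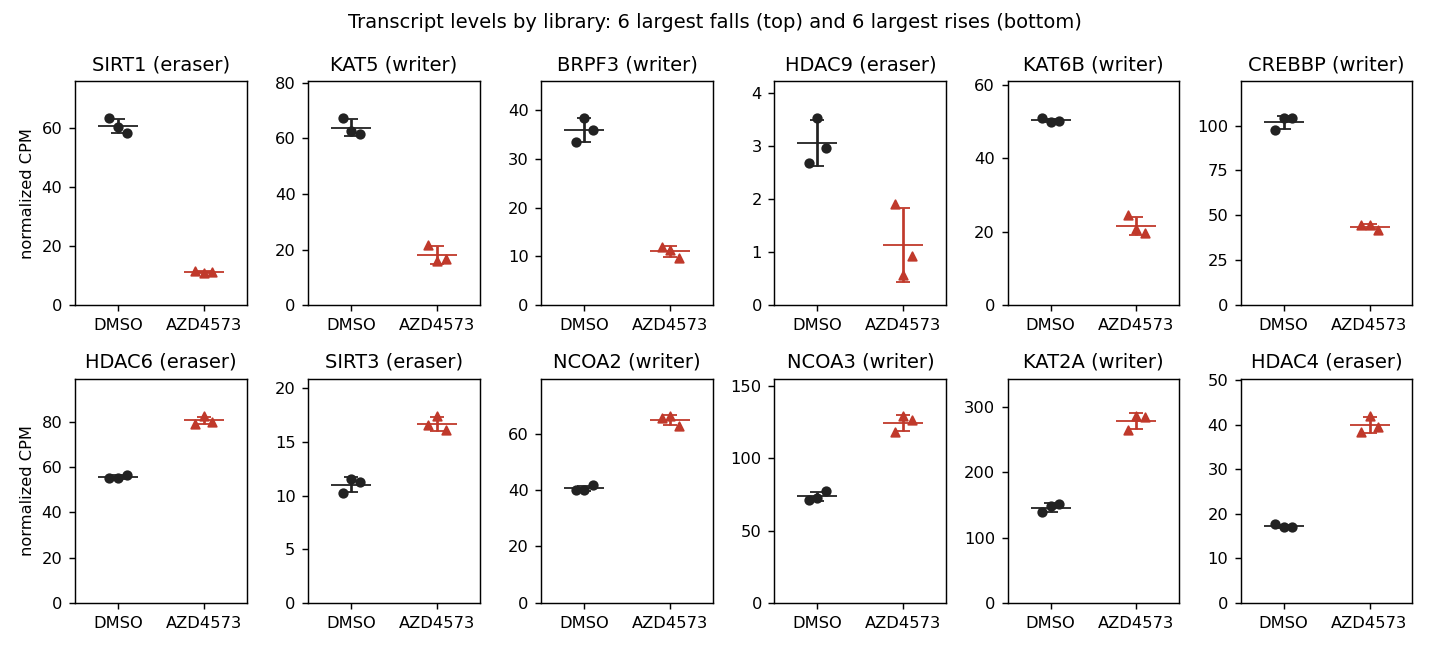
Normalized CPM (y axis, from 0) in each of the 3 DMSO and 3 AZD4573 libraries for the 6 members with the largest falls (top) and the 6 with the largest rises (bottom). Points are libraries, and bars are the mean ± SD. In each panel the groups are separate, as for SIRT1 (58.4 to 63.2 against 10.8 to 11.5 CPM) and HDAC4 (17.0 to 17.6 against 38.3 to 41.9 CPM), and the AZD4573 libraries spread most, relative to their mean, for HDAC9.

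Class I deacetylases, nuclear enzymes that carry most of the deacetylation of histones, changed by less than 1.5-fold each with TMM scaling. HDAC1, the most abundant member per kilobase of mRNA, was at 292, 294 and 288 CPM with DMSO and at 386, 406 and 415 with AZD4573. It was higher in each AZD4573 library with TMM scaling (1.38-fold, 0.47 ± 0.0409 SE, edgeR adjusted p = 2.1e-07) and lower with mitochondrial scaling (-0.27). HDAC2, which replaces HDAC1 in the same complexes, fell slightly, from 149, 141 and 130 CPM to 118, 124 and 122 (1.16-fold, edgeR adjusted p = 0.00253, -0.95 with mitochondrial scaling). HDAC8, which acts on cohesin, rose from 21.7, 20.6 and 20.3 CPM to 25.8, 23.7 and 24.9 (1.19-fold, edgeR adjusted p = 0.00207, -0.49 with mitochondrial scaling). HDAC3, the catalytic subunit of the NCoR complex, was at 47.4 to 51.7 CPM with DMSO and at 50.5 to 52.5 with AZD4573. The 95% interval of its log2 fold change was -0.05 to 0.17, and mitochondrial scaling gave -0.68.

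Class IIa deacetylases have little catalytic activity of their own and tether HDAC3 complexes to transcription factors such as MEF2. HDAC4 (chr2:239048168-239401654) was at 17.6, 17.0 and 17.0 CPM with DMSO and at 38.3, 41.9 and 39.4 with AZD4573. The groups were far apart, and HDAC4 had the largest rise of the 39 members (2.32-fold, 1.21 ± 0.0575 SE, edgeR adjusted p = 5.8e-10), at percentile 87.5 of all genes. It was also higher with mitochondrial scaling (0.47, edgeR adjusted p = 1.42e-05). HDAC5 was at 26.4, 24.7 and 22.6 CPM with DMSO and at 31.5, 32.6 and 32.6 with AZD4573 (1.31-fold higher, edgeR adjusted p = 8.6e-05, -0.35 with mitochondrial scaling), and 1826 of its 7618 exonic bases (24.0%) are shared with G6PC3 on the opposite strand, at 30.5 ± 1.17 and 31.7 ± 1.49 CPM (SD, n = 3). HDAC7, known for its expression in thymocytes, was at 123 to 134 CPM with DMSO and at 125 to 138 with AZD4573, overlapping ranges with a 95% interval of -0.11 to 0.12.

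HDAC9, the longest member at 915 kb (chr7:18086949-19002416), was poorly expressed, at 2.68, 3.52 and 2.96 CPM with DMSO and at 1.91, 0.561 and 0.934 with AZD4573, where the lowest library had 32 counts. Its fall of 2.73-fold (-1.45 ± 0.302 SE, edgeR adjusted p = 0.00067) had the second largest error among the members. The AZD4573 libraries spread more than the DMSO libraries, without reaching them, and the log2 fold change was -2.02 without AZD4573 replicate 1 and -1.13 without AZD4573 replicate 2.

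HDAC6, a cytoplasmic deacetylase of tubulin, was at 55.1, 55.4 and 56.5 CPM with DMSO and at 79.2, 82.6 and 80.2 with AZD4573 (1.45-fold higher, edgeR adjusted p = 1.1e-07, -0.20 with mitochondrial scaling). The other class IIb enzyme, HDAC10, a polyamine deacetylase, was at 59.8, 72.0 and 73.4 CPM with DMSO and at 83.5, 85.0 and 81.7 with AZD4573 (1.22-fold higher, edgeR adjusted p = 0.00168, -0.45 with mitochondrial scaling). Both genes rose without overlap between groups. HDAC10 shares 2763 of its 4951 exonic bases (55.8%) with MAPK12 on the same strand, which rose from 29.6 ± 3.26 to 37.0 ± 0.978 CPM (SD, n = 3), so that reads in the shared bases cannot be assigned with certainty. HDAC11, the single class IV enzyme, was near the limit of detection, at 0.319, 0.409 and 0.353 CPM with DMSO and at 0.412, 0.368 and 0.475 with AZD4573, and with 21 counts in the lowest library its 95% interval, -0.5 to 0.93, was wide.

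Of the 6 sirtuins, 3 fell and 3 rose (50.0% each), where 37.4% of all genes fell and 37.3% rose. SIRT1 (chr10:67884656-67918390), a nuclear enzyme that deacetylates histones and p53, was at 63.2, 60.4 and 58.4 CPM with DMSO and at 11.5, 10.8 and 11.3 with AZD4573. The libraries of each group lay close together, and the fall of 5.41-fold (-2.44 ± 0.0584 SE, edgeR adjusted p = 7.2e-12) was the largest among the 39 members and lay at percentile 1.52 of all genes. SIRT7, a nucleolar enzyme associated with rDNA transcription, was at 64.0, 78.4 and 76.9 CPM with DMSO and at 38.7, 42.6 and 41.9 with AZD4573, a fall of 1.78-fold (edgeR adjusted p = 2.1e-07). It shares 105 of 6134 exonic bases with MAFG on the same strand, which rose from 101 ± 2.84 to 302 ± 24.1 CPM (SD, n = 3). SIRT6, which acts at telomeres and in DNA repair, was slightly lower, at 25.7, 25.6 and 26.5 CPM against 22.5, 21.3 and 19.8 (1.22-fold, edgeR adjusted p = 0.00079).

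The sirtuins that rose with TMM scaling were SIRT2, SIRT3 and SIRT5. SIRT2, a cytoplasmic tubulin deacetylase, was at 43.0, 42.9 and 43.2 CPM with DMSO and at 53.2, 53.8 and 55.5 with AZD4573 (1.26-fold, edgeR adjusted p = 2.1e-05). SIRT3, the main mitochondrial deacetylase, was at 10.2, 11.5 and 11.3 CPM and at 16.6, 17.4 and 16.1 (1.52-fold, edgeR adjusted p = 5.5e-06), and SIRT5, a mitochondrial desuccinylase, at 20.8, 21.4 and 20.3 CPM and at 29.6, 29.1 and 30.7 (1.43-fold, edgeR adjusted p = 1.7e-06). All were separate between groups with TMM scaling, while mitochondrial scaling gave log2 fold changes of -0.41, -0.14 and -0.22, respectively.

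Co-repressor scaffolds that hold deacetylases at chromatin fell or were not called. SIN3A (chr15:75369379-75455842), the scaffold of an HDAC1/HDAC2 complex, was at 153, 157 and 155 CPM with DMSO and at 79.9, 76.1 and 73.9 with AZD4573 (2.02-fold lower, -1.02 ± 0.0443 SE, edgeR adjusted p = 3.1e-10). Its paralog SIN3B was at 42.4 to 50.4 CPM with DMSO and at 42.8 to 48.9 with AZD4573, with a 95% interval of -0.15 to 0.15. SIN3A libraries were thus separate between groups, and SIN3B libraries overlapped. RCOR1 (CoREST), which joins HDAC1 and HDAC2 to the demethylase KDM1A, was at 69.1, 72.1 and 68.0 CPM with DMSO and at 40.2, 40.6 and 39.9 with AZD4573 (1.73-fold lower, edgeR adjusted p = 4.5e-09).

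NCOR1 and TBL1XR1 are subunits of the NCoR complex, which activates HDAC3. NCOR1 was at 175, 174 and 176 CPM with DMSO and at 145, 143 and 136 with AZD4573 (1.24-fold lower, edgeR adjusted p = 1.3e-05). The pseudogene NCOR1P4 was listed at 155 ± 6.44 and 145 ± 5.53 CPM (SD, n = 3), nearly as high as NCOR1, so that the division of reads between these near copies is uncertain. TBL1XR1 was at 90.4 to 91.1 CPM with DMSO and at 88.2 to 94.5 with AZD4573, with a 95% interval of -0.09 to 0.10.

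Ratios between related genes within a library do not depend on the scaling between libraries. Of 17 pairs, several of which share a gene, 16 had ratios that did not overlap between groups, where 77.8% of single genes did not overlap and the share for gene pairs in general was not computed. Each of the 16 had p = 0.1, the smallest value that an exact two-sided permutation test of 3 against 3 libraries can give (0.106 after Benjamini-Hochberg adjustment over the 17 pairs). KAT2A exceeded KAT2B in counts by 3.66, 3.81 and 3.96-fold in the DMSO libraries and by 8.26, 10.0 and 10.2-fold with AZD4573. The ratio of BRPF1 to BRPF3 was 2.71, 2.45 and 2.72 with DMSO and 8.83, 10.7 and 11.1 with AZD4573. HDAC1 exceeded HDAC2 by 1.96, 2.08 and 2.22-fold with DMSO and by 3.28, 3.28 and 3.4-fold with AZD4573. In each of these pairs the more abundant gene by counts took a larger share with AZD4573.

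The balance moved the other way for SIN3A over SIN3B, from 3.6, 3.34 and 3.07 to 1.63, 1.58 and 1.73. NCOA1 and NCOA2 had nearly equal counts with DMSO (ratios 0.982, 0.986 and 1.02), and NCOA1 was the lower with AZD4573 (0.435, 0.43 and 0.463). HDAC4 was below HDAC5 in each DMSO library (0.664, 0.688 and 0.751) and above it in each AZD4573 library (1.22, 1.29 and 1.21). Pairs that changed little were EP300 over CREBBP, at 1.27, 1.28 and 1.36 with DMSO and 1.44, 1.5 and 1.38 with AZD4573, and NCOA2 over NCOA3, whose ratios overlapped (0.542 to 0.565 and 0.495 to 0.555, exact permutation p = 0.3). The pairs with HDAC9 had the largest spread, and HDAC4 over HDAC9 was 6.55, 4.83 and 5.72 with DMSO and 20.0, 73.5 and 41.8 with AZD4573.

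**Figure D4:**
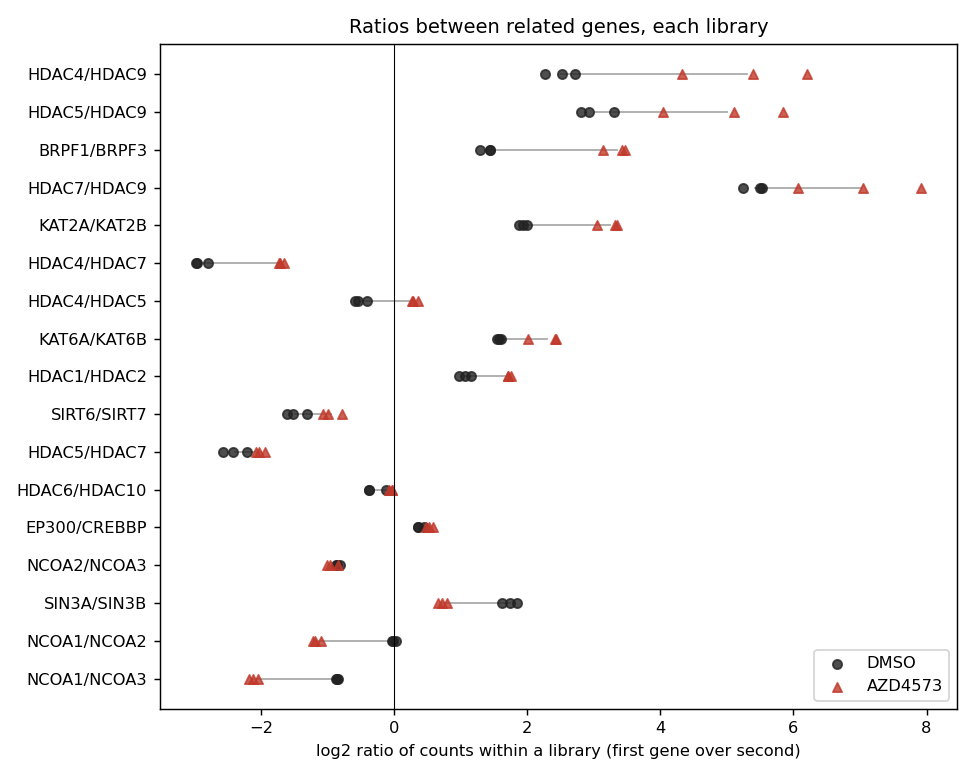
Log2 ratio of counts between related genes within each library (x axis), with 3 DMSO libraries (circles) and 3 AZD4573 libraries (triangles) per pair and a line between the group means. Groups are separate for 16 of 17 pairs, and NCOA2/NCOA3 overlaps.

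To compare levels between genes, normalized CPM was divided by the length of the canonical mRNA in kilobases. HDAC1 led by far on this scale, at 138 ± 1.31 CPM per kb with DMSO and 190 ± 7.02 with AZD4573 (SD, n = 3), and KAT2A followed, at 46.9 ± 1.98 and 89.3 ± 3.87. Next with DMSO came SIRT7 (42.4 ± 4.6), a level whose spread reaches that of KAT2A, and HAT1 (33.5 ± 2.06). HDAC7 (30.8 ± 1.49) and KAT5 (30.7 ± 1.44) were not apart beyond their SD. HDAC9 (0.309 ± 0.0436) and HDAC11 (0.128 ± 0.0163) were the lowest with DMSO. With AZD4573, KAT5 moved from place 6 to place 23 of 39 (8.7 ± 1.56 CPM per kb) and SIRT1 from place 18 to place 35 (14.8 ± 0.587 to 2.73 ± 0.0835), while NCOA3 moved from place 27 to place 14 (9.24 ± 0.386 to 15.6 ± 0.677).

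Partner genes, 83 in all, were 44 subunits of writer complexes, 34 of eraser complexes and 5 genes that supply acetyl-CoA or NAD+. They were lower more often than higher: 52 (62.7%) fell, 16 (19.3%) rose and 15 were not called. Of all genes, 37.4% fell and 37.3% rose. The median log2 fold change of the 83 was -0.31 (0.03 over all genes and -0.07 over protein-coding genes). With a fold change of at least 1.5, 29 (34.9%) fell and 1 (1.2%) rose, against 23.7% and 22.7% of all genes. The gene that rose was TRERF1, from 0.764 ± 0.274 to 2.82 ± 0.237 CPM (SD, n = 3), named after its value was seen. Partners of writers had a median of -0.47 (30 of 44 lower, 6 higher), and partners of erasers of -0.27 (20 of 34 lower, 7 higher). In NuA4/TIP60, whose catalytic subunit is KAT5, 11 of 13 partners (84.6%, against 37.4% of all genes) fell, and RUVBL1 (0.06) was not called. RUVBL2 rose (0.15), but was at -0.58 with mitochondrial scaling and was not called with library size as the only scaling (adjusted p = 0.225 by edgeR). Among those that fell, EPC1, from 36.5 ± 0.813 to 9.85 ± 0.687 CPM (-1.89, edgeR adjusted p = 5.7e-11), and EPC2, from 21.4 ± 1.19 to 6.06 ± 1.1 CPM (-1.82, edgeR adjusted p = 3.5e-09), are the Enhancer of Polycomb subunits that contact KAT5 in the complex. In SAGA and ATAC, 10 of 15 partners fell (66.7%, against 37.4% of all genes), and TADA3 rose (0.50, -0.24 with mitochondrial scaling).

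SIN3 was the complex with the lowest median (-1.16), with 9 of 11 partners lower (81.8%, against 37.4% of all genes) and the other two, SAP18 (0.02) and ING1 (-0.11), not called. SAP30, which bridges SIN3A and HDAC1, fell from 26.2 ± 1.72 to 6.88 ± 0.182 CPM (-1.93, edgeR adjusted p = 1e-10), the largest fall among partners at 10 CPM or more. In NuRD, the other large HDAC1/HDAC2 complex, 6 of 11 partners fell (54.5%, against 37.4% of all genes), 3 rose with TMM scaling, and only MBD3 (-0.59) changed by 1.5-fold or more. GATAD2B of NuRD rose from 72.8 ± 5.23 to 107 ± 7.56 CPM (0.56, edgeR adjusted p = 2.2e-06, -0.18 with mitochondrial scaling). Of the 2 NCoR partners, TBL1X (0.45) rose with TMM scaling and GPS2 (0.09) was not called, and their median was -0.47 with mitochondrial scaling.

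CoREST and MiDAC partners were mixed (5 of 10 lower, 3 higher), and PHF21A, which reads unmethylated histone H3, was among those that rose (12.3 to 13.4 CPM with DMSO, 18.2 to 19.4 with AZD4573, log2 fold change 0.54, edgeR adjusted p = 5.8e-06, -0.20 with mitochondrial scaling). In the MOZ/MORF and HBO1 complexes 4 of 7 partners fell (57.1%, against 37.4% of all genes). These were MEAF6 (-0.18), JADE1 (-1.41), JADE2 (-1.30) and JADE3 (-0.93), while ING4 rose (0.51, -0.23 with mitochondrial scaling). The MSL and NSL complexes of KAT8 had 5 of 9 partners lower (55.6%) and 3 higher (33.3%), against 37.4% and 37.3% of all genes. MSL2 was among those that rose, from 115 ± 1.83 to 166 ± 15.1 CPM (0.53, edgeR adjusted p = 1.9e-06, -0.21 with mitochondrial scaling). Of 5 genes that supply acetyl-CoA or NAD+, NAMPT, the rate-limiting enzyme of NAD+ salvage, fell from 180.3 ± 5.62 to 122 ± 3.81 CPM (-0.57, edgeR adjusted p = 5e-08) and NMNAT1 by 0.31 on the log2 scale. ACSS2 (0.33) and the citrate carrier SLC25A1 (0.40) rose, and ACLY (0.10) was called higher with an adjusted p of 0.0274 by edgeR, which was lost with library size as the only scaling (adjusted p = 0.999). All 3 turned negative with mitochondrial scaling.

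**Figure D5:**
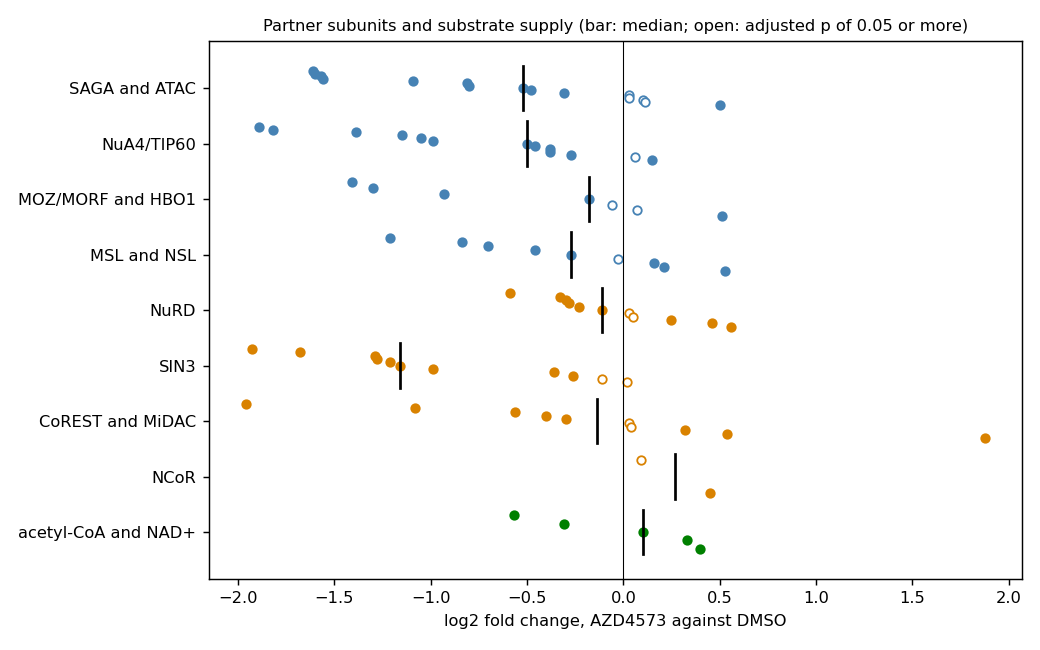
Log2 fold change (AZD4573 against DMSO, x axis) of 83 partner subunits and substrate-supply genes by complex (writer partners in blue, eraser partners in orange, substrate supply in green), with a bar at each median. Open points had an adjusted p of 0.05 or more. SIN3 partners have the lowest median (-1.16) and NCoR partners the highest (0.27, with TMM scaling; -0.47 with mitochondrial scaling).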

How the data were processed

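Bulk RNA-seq was performed on 3 DMSO and 3 AZD4573 libraries of H9 cells. According to the supplemental methods and processing notes, the authors trimmed reads with Cutadapt 2.3, aligned to GRCh38 (STAR 2.7.8a) and estimated expected counts for each gene (RSEM 1.3.3, default settings, in which strand is ignored). The deposited expected counts were whole and had not been normalized. Library preparation is given as poly(A) selection in the labels and as rRNA depletion in the supplemental methods. The table has 61546 entries, of which 61541 are genes (61369 in GENCODE 44) and 5 are reporter sequences with 0 counts, left out. Opposite-strand and near-copy genes may therefore share reads with members.

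Counts were analysed in R 4.3.3 with edgeR 4.0.16 (filter with minimum count 10, leaving 17678 genes, TMM, quasi-likelihood test, Benjamini-Hochberg adjustment over all genes). Called genes had an adjusted p under 0.05. SE is the log2 fold change divided by the square root of F, and 95% intervals use the t quantile with the moderated degrees of freedom. Each library was a replicate. Replicate numbers did not pair the libraries, so no block was used. Paralog ratios (counts + 0.5) were compared by an exact permutation test. Alternatives were RLE factors, library size only, scaling to 13 mitochondrial mRNAs, other filters, each library left out, a replicate block and DESeq2 1.42.0. In simulated counts with few changed genes, edgeR recovered 151 of 154 changed genes at 1 CPM or more, with 13 false calls among 17111 unchanged genes. Most genes were called in the real data, so the simulation does not test the scaling between libraries. The lowest counts of any member in a library were 21 (HDAC11) and 32 (HDAC9).

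The members, the partner lists, the pairs and the motifs were chosen with earlier results of these data known. All members were named, together with the 3 partners with the largest falls and the 3 with the largest rises. These 3 and 3 were taken among partners called, separate between groups and at 10 CPM or more in the higher group. Of the genes whose exons overlap a member, only some were named. Other partners named were chosen after their values were seen. A further partner gene is not reported here.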

Additional observations from a re-analysis of the deposited data

How the results depend on the processing

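Of 507 values (39 members under 13 alternatives), 487 kept their call (lower, higher or not called). Among these, the sign could differ for genes not called, as for HDAC11 (0.22, and -0.52 with mitochondrial scaling). Scaling to mitochondrial mRNAs changed most of the rest. It gave 33 members lower and 2 higher, 1 writer higher, 19 erasers lower and 1 higher. The medians were -1.11 (writers) and -0.71 (erasers), beside a shift of the median of all genes to -0.71. The share of all genes called with this scaling was not computed. Under it the log2 fold changes of KAT8 (-0.64), NCOA2 (-0.062), BRPF1 (-0.49), EP400 (-0.32), HDAC1 (-0.27), HDAC3 (-0.68), HDAC5 (-0.35), HDAC6 (-0.20), HDAC7 (-0.73), HDAC8 (-0.49), HDAC10 (-0.45), HDAC11 (-0.52), SIRT2 (-0.41), SIRT3 (-0.14), SIRT5 (-0.22), SIN3B (-0.74) and TBL1XR1 (-0.74) were negative. This follows from the scaling, which moved each member by about the same amount (median -0.74). NCOA3 was no longer called (0.02), and HAT1 was called lower (-0.76).

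With library size as the only scaling, TBL1XR1 (-0.10) and HAT1 (-0.13) were called lower, so that 20 members were lower, and the medians were -0.48 for writers and -0.07 for erasers. The eraser median was -0.01 without a filter on low counts. The cause of these differences was not tested. A fold change of at least 1.5 in addition to the adjusted p left 11 members lower and 5 higher, as fewer genes can meet both criteria. By side, 6 writers (35.3%) were lower and 3 (17.6%) higher, and 5 erasers (22.7%) were lower and 2 (9.09%) higher. Of all genes, 23.7% were lower and 22.7% higher by both criteria. Leaving out each library in turn gave writer medians of -0.44 to -0.35 and eraser medians of 0.01 to 0.04, with 18 members lower and 14 higher each time. The replicate block also gave 18 lower and 14 higher. Same-numbered libraries did not deviate together (correlations -0.0208, 0.0417 and 0.0316), and the block changed no call.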

Other observations

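The members spanned 6.22 kb (HDAC10) to 915 kb (HDAC9) of the genome, with a median of 51.0 kb against 31.5 kb for 13423 protein-coding genes tested. Over the 39 members, gene span and log2 fold change had a Spearman rho of -0.11 (-0.03 over the protein-coding genes), given as a description over genes that share the same 6 libraries. Of 7 members of 10 to 30 kb, 0 fell and 4 rose (BRPF1, HDAC6, SIRT2 and SIRT3), with a median of 0.25 with TMM scaling, where 44.7% of protein-coding genes of that span fell and 36.4% rose. With mitochondrial scaling these 4 were at -0.49, -0.20, -0.41 and -0.14. Of 5 members under 10 kb, KAT5, SIRT6 and SIRT7 fell and KAT2A and HDAC10 rose (HDAC10 at -0.45 with mitochondrial scaling), where 38.4% of protein-coding genes of that span fell and 42.0% rose. Of 15 members over 100 kb, 9 fell (60.0%) and 5 rose (33.3%), against 40.3% and 37.2% of protein-coding genes. The level with DMSO had a rho of -0.36 with the log2 fold change among the 22 erasers, 0.20 among the 17 writers and -0.20 over protein-coding genes. The number of exons of the canonical transcript had a rho of 0.08 over both members and protein-coding genes.

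Exon bases were shared with another annotated gene for 23 members, and by at least 10% for 4 of them (KAT5, HDAC10, HDAC5 and KAT2A). For KAT2A the shared bases (405 of 3775, 10.7%) belong to an unnamed gene on the same strand at 0.168 ± 0.149 CPM with DMSO (SD, n = 3) and 0 with AZD4573. Smaller overlaps involved genes that moved by themselves, of which only examples are given. FAM117A, which shares 226 of 16574 exonic bases with KAT7 on the opposite strand, fell from 116 ± 4.21 to 66.1 ± 2.86 CPM (log2 fold change -0.81). SMURF1, opposite TRRAP (735 of 19972 bases), rose from 65.8 ± 2.95 to 122 ± 8.28 CPM (0.90, SD, n = 3) while TRRAP fell. RIC8A, opposite SIRT3 (84 of 5553 bases), fell from 89.8 ± 1.83 to 62.1 ± 1.61 CPM (-0.53) while SIRT3 rose with TMM scaling. The part of these overlaps in the counts of the members was not tested.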
